A study of Mus musculus with 8 samples.

Results

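Dystrophin (Dmd), dystroglycan (Dag1), α-, β- and δ-sarcoglycan (Sgca, Sgcb, Sgcd), sarcospan (Sspn), utrophin (Utrn) and α-dystrobrevin (Dtna) were followed in a fast hindlimb muscle, the extensor digitorum longus (EDL), of PCKO and wild-type (WT) mice. A probe was taken where it was no control spot and its transcript accession mapped to 1 of these 8 genes. This gave 13 of the 55681 probes of the array: 3 each for Dmd and Sgcb, 2 for Sgcd and 1 for each other gene. The rule itself uses no measured value, but the genes were picked with earlier results of these data known.

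PCKO mice (n = 4) carried an inducible, skeletal muscle-specific deletion of p300 (Ep300) and CBP (Crebbp), which are related histone acetyltransferases and coactivators. Their genotype field names CBP alone, while the protocol names both genes. WT mice (n = 4) were labelled wildtype, and the sources used here do not say which floxed alleles they carried, or which promoter drove the recombinase. All 8 were male and C57BL/6. Tamoxifen was gavaged for 5 days from 13 to 15 weeks of age, and muscle was taken the day after the last gavage, following a 4 h fast; the same treatment text stands with all 8 samples but is worded for PCKO mice. Each sample had its own Cy3 array. The labels number the samples within a group and do not describe how animals were assigned, so they are taken as separate mice, and p-values measure the spread between these samples.

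Dystrophin is a long cytoplasmic rod that ties the actin cytoskeleton of the muscle fibre to a complex in its membrane. In that complex, dystroglycan binds laminin outside the fibre, and the sarcoglycans with sarcospan hold dystroglycan and dystrophin together. Dystrobrevin and the syntrophins bind dystrophin inside the fibre and recruit signalling proteins such as neuronal nitric oxide synthase. Utrophin is the close relative of dystrophin, concentrated at the neuromuscular and tendon junctions of adult fibres. Loss of dystrophin or of α-, β- or δ-sarcoglycan causes muscular dystrophy in humans and mice.

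Members of the complex did not move together. Relative to the rest of each array, Sgcd, Dtna and Sgca fell between 2.85-fold and 6.89-fold in PCKO muscle, Dmd by 1.91-fold at its brightest probe, and Dag1 and Utrn by 1.25-fold and 1.33-fold. Sgcb rose at all 3 probes, by 1.29-fold to 1.67-fold. Sspn showed no difference past the threshold. Values are log2 spot intensities minus the 75th percentile of their own array, and the test was limma over all 24867 tested probes with Benjamini-Hochberg adjustment, at a threshold of 0.05. Of the 13 probes, 9 were called lower and 3 higher, where 65.1% of all tested probes were called, 31.3% lower and 33.8% higher. PCKO and WT values did not overlap at 12 of the 13 probes, against 60.1% of all tested probes. With so large a share of the array changed, the counts by themselves do not set the complex apart; the sizes and directions of its members are described below. The median log2 difference over the 8 genes, each at its brightest probe, was -0.67, and it was 0.06 over all 12738 named genes.

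**Figure D1:**
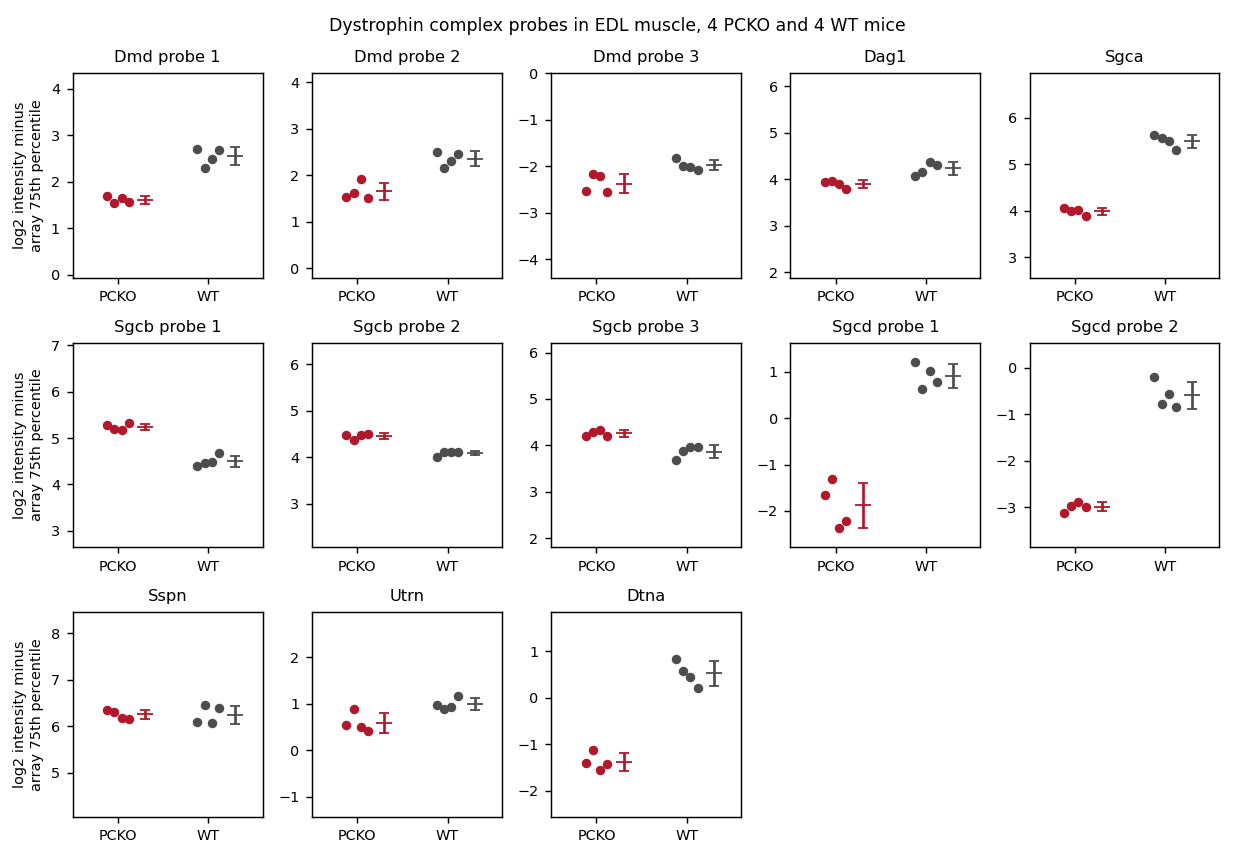
Log2 intensity minus the array's 75th percentile (vertical axis) for each of the 13 probes, with 1 point per mouse, 4 PCKO mice in red to the left of 4 WT mice in grey, and the mean ± SD beside the points; every panel spans the same number of log2 units. PCKO values lie below WT at the probes of Dmd, Dag1, Sgca, Sgcd, Utrn and Dtna and above WT at those of Sgcb, while the groups overlap for Sspn.

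The scaling matters for the small differences. Relative to 7 spike-in control probes, which detect RNAs added to each sample, the 75th percentile itself was higher in PCKO. It stood at -2.80 ± 0.34 in PCKO against -3.48 ± 0.30 in WT (log2 units, mean ± SD over 4 mice per group). A two-sided exact permutation test gave p = 0.029, which is as low as 4 against 4 can give. Centring on the spike-ins therefore lifts every log2 difference by 0.68. Among called probes of the whole array, 51.9% were higher in the main scaling and 84.4% with spike-in centring. Results below that change call or direction under it are named where they stand. All 13 probes were well above background on all 8 arrays, so no fold change here is a bound. PCKO arrays occupied 2 columns of the slide and WT arrays the others, so the side of the slide and the genotype cannot be told apart; both groups were present in each of its 2 rows. Ep300 and Crebbp, the deleted genes, differed by -1.44 ± 0.11 (limma adjusted p = 9.5e-06) and -0.70 ± 0.11 (adjusted p = 0.00060), the second being -0.02 with spike-in centring; whether these probes lie in the deleted exons is not known here.

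The 3 sarcoglycans are membrane-spanning subunits of a single assembly, and their transcripts went opposite ways. Because that contrast is the main one among the members, the 250 bases before the transcription start of each are shown, from the RefSeq promoter table (GRCm38.p6), and each runs 5′ to 3′ on the strand of its gene, the minus strand for all 3, and capitals mark E-boxes (CANNTG, searched on both strands), the core motif of myogenic bHLH factors. Sgca lies at chr11:94976328-94976577, Sgcd at chr11:47379326-47379575, a start inside the annotated gene rather than its outermost one, and Sgcb at chr5:73647738-73647987.
Sgca: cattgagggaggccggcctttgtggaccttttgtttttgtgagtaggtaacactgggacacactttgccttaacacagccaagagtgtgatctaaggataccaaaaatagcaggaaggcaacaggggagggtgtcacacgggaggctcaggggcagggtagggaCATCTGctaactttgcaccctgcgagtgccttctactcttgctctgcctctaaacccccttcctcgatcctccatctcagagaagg
Sgcd: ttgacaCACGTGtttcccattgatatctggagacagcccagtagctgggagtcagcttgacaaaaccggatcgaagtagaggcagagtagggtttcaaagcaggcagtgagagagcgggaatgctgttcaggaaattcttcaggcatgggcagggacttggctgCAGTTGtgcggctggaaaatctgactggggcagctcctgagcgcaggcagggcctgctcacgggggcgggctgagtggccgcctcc
Sgcb: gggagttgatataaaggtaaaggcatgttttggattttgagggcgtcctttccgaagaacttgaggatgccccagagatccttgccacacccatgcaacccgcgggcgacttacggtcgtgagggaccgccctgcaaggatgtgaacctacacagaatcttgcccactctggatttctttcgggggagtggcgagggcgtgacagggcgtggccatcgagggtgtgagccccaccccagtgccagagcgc
The Sgca window holds 1 E-box, the Sgcd window 2 and the Sgcb window 0. An E-box occurs in 66.2% of the 32841 mouse windows of this length. The windows also differ in CpG dinucleotides, with 4 in Sgca, 9 in Sgcd and 14 in Sgcb, where the median window has 6. The cyclic AMP response element (TGACGTCA), bound by the CBP partner CREB and present in 1.55% of windows on either strand, was found in none of the 3. CpG counts in other members did not line up with the direction of change. E-boxes were found in other members called lower, though not in every window. Dag1, also called lower, had 1 E-box in each of its listed windows, with 21 and 36 CpG. For Dmd, called lower too, a listed window had 2 E-boxes and 2 CpG and another had 0 and 7. Utrn, likewise called lower, had 7 E-boxes and 2 CpG in a window whose listed start is uncertain. Such matches describe letters in these windows and are not evidence of binding.

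δ-Sarcoglycan (Sgcd) fell the most of the 8 genes. At the brighter of its probes the PCKO arrays read -1.65, -1.32, -2.36 and -2.21, against 1.20, 0.62, 1.02 and 0.77 on the WT arrays. The highest PCKO array lay well below the lowest WT array. In unscaled intensity this was 33.7 to 81.5 in PCKO and 216 to 251 in WT. PCKO minus WT came to -2.78 ± 0.24 (SE, n = 4 per group, limma adjusted p = 1.7e-05), or 6.89-fold. The other probe gave -2.40 ± 0.14 (adjusted p = 2.1e-06), with PCKO arrays from -3.12 to -2.88 and WT arrays from -0.84 to -0.20. Both probes stayed lower with spike-in centring, at -2.11 and -1.72. A normexp background correction, which adds an offset and so compresses dim probes, gave -1.74 and -1.17. In the deposited values the second probe gave a smaller fall of -1.27 ± 0.11 (limma adjusted p = 1.5e-06), and the brighter probe had no value there. Both Sgcd probes are among the dimmer member probes, with PCKO intensities of 18.9 to 26.0 at the second one. The size of the fall thus depends on the processing.

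α-Sarcoglycan (Sgca), the subunit confined to striated muscle, read 4.06, 4.00, 4.02 and 3.88 in PCKO, against 5.63, 5.56, 5.51 and 5.30 in WT. The PCKO mice lay close together and far below every WT mouse. Intensities ran from 2300 to 3260 in PCKO and from 5010 to 6830 in WT. The log2 difference was -1.51 ± 0.09 (limma adjusted p = 2.5e-06), or 2.85-fold, and centring on the spike-ins left -0.83 ± 0.30 (adjusted p = 0.012).

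β-Sarcoglycan (Sgcb), which initiates assembly of the sarcoglycans, was the only member called higher in the main scaling. Its brightest probe read 5.27, 5.19, 5.18 and 5.32 in PCKO, against 4.39, 4.47, 4.48 and 4.67 in WT. Every PCKO mouse was above every WT mouse. The unscaled intensities, which carry any difference in overall brightness between arrays, did not overlap either, at 6240 to 7470 in PCKO and 2300 to 3240 in WT. PCKO exceeded WT by 0.74 ± 0.09 log2 units (limma adjusted p = 0.00011), or 1.67-fold. The other probes gave 0.37 ± 0.07 (adjusted p = 0.0020) and 0.38 ± 0.09 (adjusted p = 0.0048). With spike-in centring the 3 probes rose by 1.42, 1.05 and 1.06. The brightest probe rose more than the others within the same arrays, by 0.37 and 0.35 log2 units (exact permutation test, two-sided, p = 0.029 and adjusted p = 0.044 for each, n = 4 per group). The other pair of Sgcb probes moved alike, with a difference of -0.02 (exact p = 0.771). All 3 carry the same RefSeq accession, and where each lies in the transcript is not known here.

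Sarcospan (Sspn), a small tetraspanin-like protein bound to the sarcoglycans, read 6.36, 6.32, 6.19 and 6.16 in PCKO, against 6.10, 6.45, 6.08 and 6.39 in WT. The PCKO values fell inside the WT range. The log2 difference was 0.00 ± 0.11, with a 95% confidence interval from -0.25 to 0.26 (limma adjusted p = 0.99). This rests on the scaling. Unscaled intensities were 11100 to 16300 in PCKO and 7500 to 12700 in WT, and Sspn was higher at 0.32 ± 0.11 under quantile normalization (adjusted p = 0.030), 0.34 ± 0.11 in the deposited values (adjusted p = 0.019), and 0.68 ± 0.30 when the spike-ins set the scale (adjusted p = 0.042).

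Dystrophin (Dmd), the cytoskeletal anchor of the complex, read 1.70, 1.54, 1.66 and 1.56 at its brightest probe in PCKO, against 2.71, 2.30, 2.48 and 2.69 in WT. All PCKO values were below all WT values. The log2 difference was -0.93 ± 0.11 (limma adjusted p = 0.00011), or 1.91-fold. The next probe gave -0.71 ± 0.12 (adjusted p = 0.00086), and the third, a dim one at intensities of 26.4 to 45.5 in PCKO and 30.1 to 36.6 in WT, gave -0.39 ± 0.12 (adjusted p = 0.018). This last call was lost with no filter on dim probes (adjusted p = 0.070), with an intensity trend (0.059), in slide rows 1 and 2 alone (0.12 and 0.18) and without PCKO replicate 1 or 4 (0.051 for each). The brightest and the second probe fell more than the dim one within the same arrays, by 0.54 and 0.32 log2 units (exact permutation test, two-sided, p = 0.029 and adjusted p = 0.044 for each, n = 4 per group). The first of these calls was lost without PCKO replicate 2 or 3 or WT replicate 1, 3 or 4 (-0.54 to -0.45), the second without any 1 PCKO mouse (-0.35 to -0.25), and both after normexp correction (-0.19 and -0.01). Dmd is transcribed from several promoters into long and short products, and the files do not say which of them each probe detects. With spike-in centring none of the 3 probes was called (-0.25, -0.04 and 0.28, adjusted p = 0.47, 0.92 and 0.41). In unscaled intensity the brightest probe had 459 to 594 in PCKO and 679 to 821 in WT, and the second had 445 to 687 in PCKO and 602 to 697 in WT. The fall of Dmd was thus called relative to other transcripts of the same muscle and not relative to the spike-ins. With an SE of 0.30 at each probe in that setting, whether the level of Dmd relative to the spike-ins fell is not settled.

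Dystroglycan (Dag1), whose single transcript yields both the laminin-binding and the membrane-spanning subunit, read 3.93, 3.97, 3.90 and 3.79 in PCKO, against 4.07, 4.15, 4.37 and 4.31 in WT. The groups did not overlap, but the gap between them was narrow. Unscaled intensities overlapped, at 2160 to 3210 in PCKO and 1840 to 2580 in WT. This made a log2 difference of -0.33 ± 0.09 (limma adjusted p = 0.014), or 1.25-fold. The call was lost after normexp correction (-0.13, adjusted p = 0.37), with no filter on dim probes (adjusted p = 0.067) and in slide row 1 alone (-0.16, adjusted p = 0.41), and the sign turned with spike-in centring (0.35, adjusted p = 0.31).

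α-Dystrobrevin (Dtna), a dystrophin-related protein that binds dystrophin and the syntrophins, read -1.41, -1.12, -1.56 and -1.42 in PCKO, against 0.84, 0.58, 0.44 and 0.20 in WT. A wide gap separated the highest PCKO mouse from the lowest WT mouse. Intensities were 58.1 to 93.9 in PCKO and 146 to 217 in WT. This gave a log2 difference of -1.90 ± 0.15 (limma adjusted p = 1.1e-05), or 3.72-fold, and centring on the spike-ins left -1.22 ± 0.30 (adjusted p = 0.00026).

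**Figure D2:**
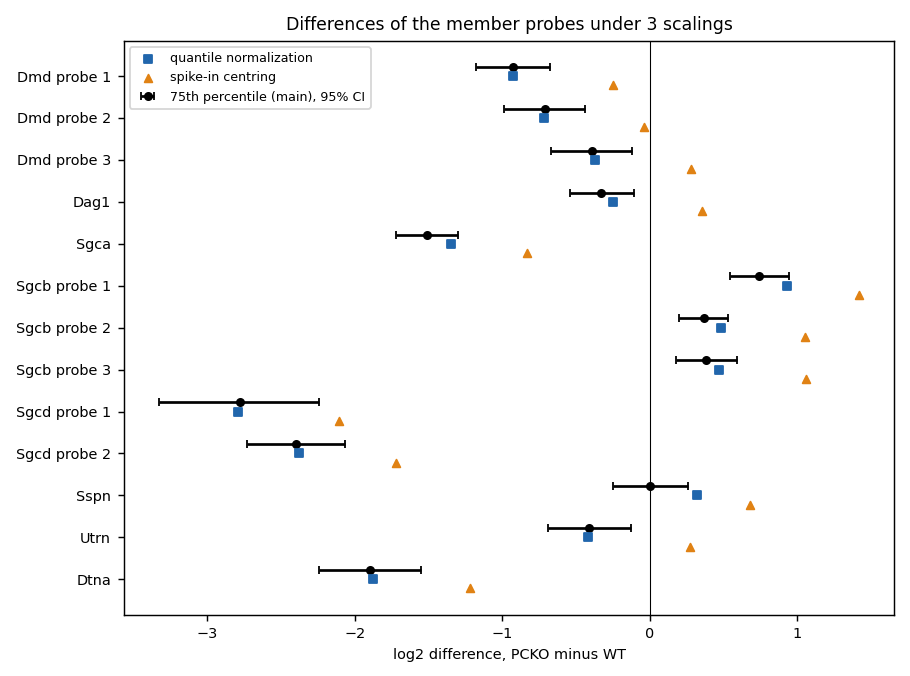
Log2 difference, PCKO minus WT (horizontal axis), for each of the 13 probes under 3 scalings: black circles give the main scaling with its 95% confidence interval, blue squares quantile normalization and orange triangles spike-in centring. Sgca, Sgcd and Dtna stay left of 0 and Sgcb right of 0 under all 3, whereas Dag1, Utrn and the dimmest Dmd probe cross 0 with spike-in centring.

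Utrophin (Utrn), which can stand in for dystrophin at the membrane, read 0.54, 0.89, 0.49 and 0.40 in PCKO, against 0.98, 0.89, 0.93 and 1.16 in WT. PCKO replicate 2 came within rounding of the lowest WT mouse, and the other PCKO mice lay clearly below. Unscaled intensities overlapped, at 206 to 378 in PCKO and 216 to 284 in WT. The log2 difference was -0.41 ± 0.12 (limma adjusted p = 0.016), or 1.33-fold, and its 95% confidence interval ran from -0.69 to -0.13. Utrophin was therefore not raised in the main scaling. The call was lost after normexp correction (-0.22, adjusted p = 0.14), with no filter on dim probes (adjusted p = 0.062) and in slide row 1 alone (-0.22, adjusted p = 0.36), and it stood at 0.27 ± 0.30 (adjusted p = 0.44) when the spike-ins set the scale.

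Ratios within an array do not depend on a constant shift of that array, such as the percentile or spike-in scaling, but quantile normalization can change them. Only their change between groups is meaningful. Utrn was set against each other member at its brightest probe, which with the probe pairs above made 14 comparisons, adjusted together. Relative to Dmd, Utrn was 0.52 log2 units higher in PCKO (-1.03 ± 0.26 in PCKO against -1.55 ± 0.13 in WT, mean ± SD over 4 mice per group; p = 0.029 and adjusted p = 0.044 in a two-sided exact permutation test). So Utrn and the brightest Dmd probe changed unequally, by -0.41 and -0.93 in the main scaling. The other Dmd probes gave -0.71 and, at the dimmest, -0.39, the last close to Utrn. Utrn was not compared with those probes within arrays. Relative to Sgca, Dtna and Sgcd, Utrn was higher by 1.10, 1.48 and 2.37, and relative to Sgcb it was lower by 1.15 on the same scale (log2 difference -1.15), each with exact p = 0.029 and adjusted p = 0.044 (two-sided, n = 4 per group). Against Dag1 (-0.08, exact p = 0.486) and Sspn (-0.41, exact p = 0.057) the ratio did not pass the threshold, although in the deposited values Utrn minus Sspn was -0.70 (exact permutation test, adjusted p = 0.034). Of the 14 pairs, 9 passed, all at the smallest p that 4 against 4 mice allow. After normexp correction, or without PCKO replicate 2 or PCKO replicate 3, none of the 14 passed, although the sizes for Utrn against Dmd were 0.38, 0.39 and 0.56 in those settings.

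**Figure D3:**
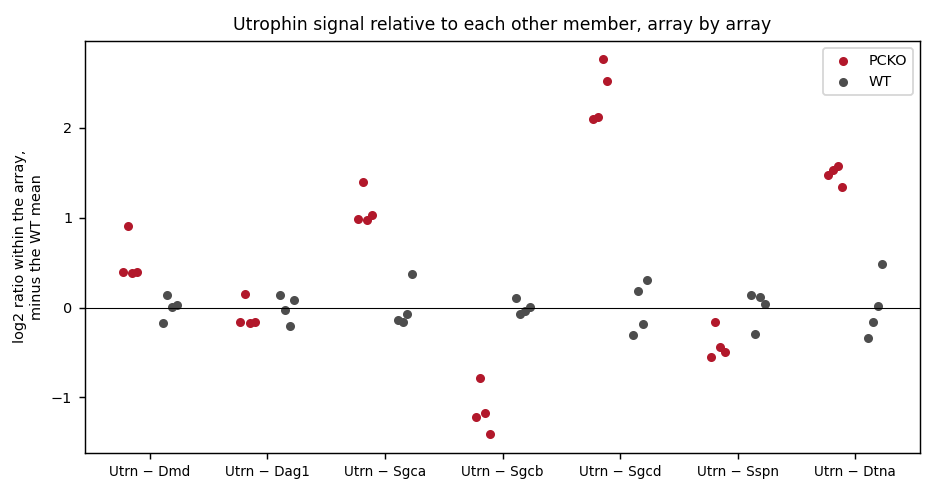
Log2 ratio of Utrn to each other member within an array, minus the WT mean of that ratio (vertical axis), 1 point per mouse, with 4 PCKO mice in red to the left of 4 WT mice in grey. PCKO points lie above all WT points for Dmd, Sgca, Sgcd and Dtna and below them for Sgcb, and the groups overlap for Dag1 and Sspn.

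The transcripts whose pattern over the 8 arrays was closest to that of Dmd at its brightest probe, among 12698 other named genes, included Mtdh and Abca8a, with Pearson r of 0.996 and 0.994. Those closest to Utrn were Eya2, Kcna1 and Lum, with r of 0.978, 0.977 and 0.972. Both sets share the contrast between the groups, which fixes much of such a correlation, and all the values come from the same 8 arrays.

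Other proteins of the complex also moved in both directions. Of 11 further members on a list, 6 were tested, of which 4 were lower and 2 higher, with a median log2 difference of -1.66; among all named genes at their brightest probes 69.4% were called, 31.9% lower and 37.5% higher. ε-Sarcoglycan (Sgce), the widely expressed relative of Sgca, was higher by 1.27 ± 0.08 (adjusted p = 4.0e-06), at 2.68 ± 0.08 in PCKO and 1.41 ± 0.10 in WT (SD, n = 4 each), so that it rose while Sgca fell. Sntb2, a syntrophin that binds dystrophin and its relatives, was higher by 0.78 ± 0.11 (adjusted p = 0.00033). Nos1, the neuronal nitric oxide synthase anchored by the complex, differed by -4.81 ± 0.54 (adjusted p = 8.7e-05), and was well above background on all 4 WT arrays but only 1 PCKO array. On the other PCKO arrays it was not well above background, and values spread from -5.81 to -3.89, so the size of this difference is not exact. Cav3, the muscle caveolin, differed by -1.41 ± 0.11. With spike-in centring the list again had 4 lower and 2 higher calls, against 1197 lower and 6816 higher of the 12738 named genes. Sgcz, Sntb1, Sntg1, Sntg2 and Dtnb were too dim to be tested.

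Genes for the laminin-binding sugar chain of dystroglycan, including those that supply its mannose donors, leaned the other way from most of the complex. Of 17 tested, 10 were higher and 2 lower, with a median log2 difference of 0.42, where 37.5% of all named genes were higher and 31.9% lower. B4gat1, which primes the matriglycan chain, was higher by 1.33 ± 0.09 (limma adjusted p = 5.1e-06). B3galnt2, which extends the core O-mannose glycan, fell by 1.48 ± 0.08 on the log2 scale, and Dpm1, a subunit of dolichol-phosphate-mannose synthase, by 0.53 ± 0.09, the second turning to 0.14 with spike-in centring. With spike-in centring 15 of the 17 were higher and 1 was lower, against 6816 and 1197 of the 12738 named genes.

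Most genes for the matrix side of the linkage were lower in the main scaling. Of 10 genes for laminins and other basement membrane ligands, 7 were lower and 0 higher, with a median of -0.96, where 31.9% of all named genes were lower and 37.5% higher. The others were Lama5 (0.24, adjusted p = 0.089), Agrn (0.18, adjusted p = 0.38) and Lamb2 (0.09, adjusted p = 0.45), named after their values were seen. Lama2, the main laminin α chain of muscle, differed by -1.21 ± 0.11 (limma adjusted p = 2.8e-05) and Nid1, nidogen, by -1.16 ± 0.15. These calls depend on the scaling, since with spike-in centring 0 of the 10 were lower and 3 were higher, against 1197 lower and 6816 higher of the 12738 named genes, and Lama2 stood at -0.53 (adjusted p = 0.12). The integrin system, which links fibres to laminin in parallel with dystroglycan, was mixed, with 4 lower and 3 higher of 9 and a median of -0.24. The muscle laminin receptor subunit Itga7 differed by -1.18 ± 0.14 and the talin Tln2 by -1.30 ± 0.12, while the integrin subunits Itgav and Itgb1 were higher by 0.64 ± 0.15 and 0.40 ± 0.10. With spike-in centring 4 were higher and 0 lower, read against the same shift of all named genes. Of 8 tested linkers to the cytoskeleton, 7 were lower and 0 higher, with a median of -0.71, led by Synm, the dystrobrevin-binding filament protein synemin (-3.87 ± 0.10 at its brightest probe), and Plec, plectin (-2.55 ± 0.08). With spike-in centring 3 of these were lower and 1 higher.

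**Figure D4:**
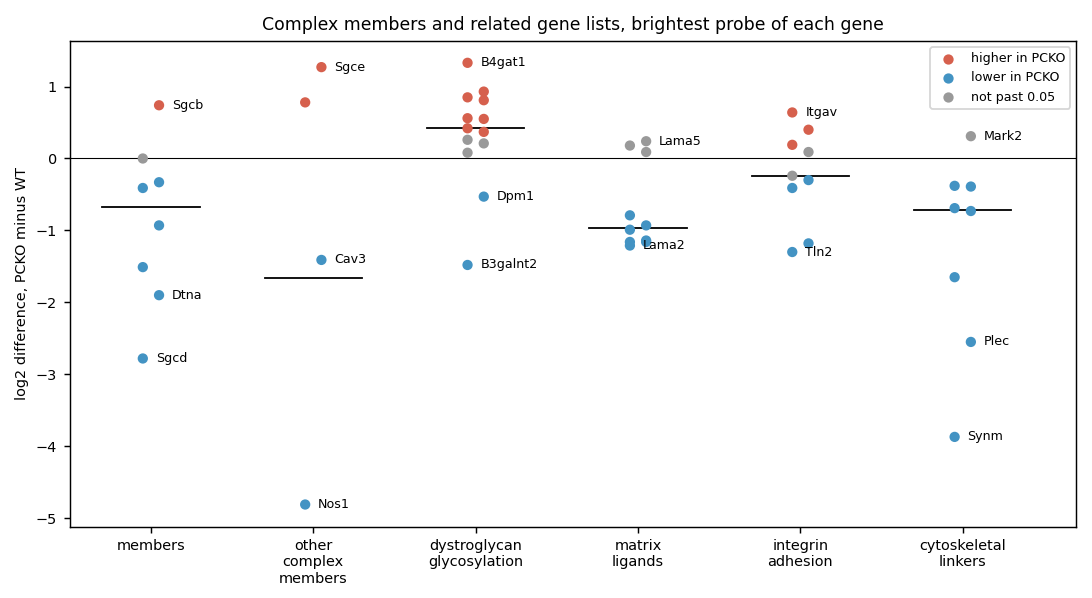
Log2 difference, PCKO minus WT (vertical axis), of tested genes at their brightest probe, for the 8 members and 5 related lists; red points were higher, blue points lower and grey points not past an adjusted p of 0.05, and the bar is the median of the list. The bar covers the whole list, and points of genes that are not reported are left out. The median lies at -0.67 for the members and at 0.42 for the dystroglycan glycosylation genes, and Nos1 has the lowest value of the points drawn.

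EDL tissue also holds vessels, nerve, connective tissue and satellite cells, and several members, among them Dag1, Utrn and Sgcb, are expressed outside fibres. All 10 fibre markers tested, fast myosins among them, were well above background on every array of both groups, and 10 of 10 were lower in PCKO (summed scaled level 1270 to 1640 in PCKO and 5500 to 7160 in WT). Among all named genes 31.9% were lower and 37.5% higher. Of the other markers tested, lower were 8 of 8 endothelial (25.2 to 28.4 in PCKO, 49.7 to 53.7 in WT), 7 of 7 smooth muscle and pericyte (51.6 to 69.8 in PCKO, 101 to 126 in WT), 7 of 7 fibroblast (237 to 346 in PCKO, 548 to 823 in WT) and 5 of 5 macrophage genes (13.5 to 23.2 in PCKO, 30.7 to 38.9 in WT). Schwann cell markers were 2 lower and 1 higher of 8 (17.3 to 40.8 in PCKO, 25.7 to 43.4 in WT), satellite cell markers 1 lower of 3 (9.44 to 10.7 in PCKO, 10.4 to 13.3 in WT) and tendon markers 3 lower of 4 (7.93 to 13.1 in PCKO, 19.9 to 34.1 in WT). With spike-in centring 8 of 10 fibre, 5 of 7 fibroblast, 2 of 4 tendon, 1 of 8 endothelial, 1 of 5 macrophage, 1 of 3 satellite cell, 0 of 7 smooth muscle and pericyte and 0 of 8 Schwann cell markers were lower, and 1 satellite cell and 1 Schwann cell marker were higher. In that setting 1197 of the 12738 named genes were lower and 6816 higher. Fewer cells of a type and less RNA per cell cannot be told apart in such samples, and the part of cell composition in the members' differences was not tested.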

How the data were processed

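Per the labels, total RNA from 8 EDL samples was labelled with Cy3 and hybridised to Agilent SurePrint G3 arrays, 1 array per sample. The samples are taken as separate mice. The deposited scanner files hold spot intensity values that, per the file headers, Feature Extraction 10.7.3.1 made, with background subtracted and nothing normalized between arrays. The authors also deposited a table of log2 values; how they were made is not given in these sources. It holds 7 of the 13 member probes and served as an alternative. On each array 24207 to 25673 probes (43.5% to 46.1%) were well above background, and no spot was saturated. The number of arrays limits the precision.

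Spots flagged as non-uniform or as population outliers were dropped, spots of a probe were averaged, and each array was scaled as stated in the report. Probes entered the test if Agilent's flag put them well above background on 4 or more arrays. Accessions were matched without version to RefSeq genes of GRCm38.p6, which named 26582 of 55681 probes, none with several symbols. The array design was annotated on an older build, so no probe coordinates are given. The group comparison used R 4.3.3 and limma 3.58.1 (group as the only term in lmFit, then eBayes), and the procedure was tested on simulated data. Exact permutation tests used all splits of the arrays. Replicate numbers were shared between groups, but deviations of same-numbered arrays correlated at only 0.015 to 0.089, so the numbers were not taken as pairs. The mean spot signal is not among the columns used, so normexp was run on the median signal with an offset of 50.

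The members and lists were chosen with earlier results of these data known. Beyond the members, the text names both deleted genes, a set of genes of the related lists, the 2 extreme called genes with non-overlapping groups at either end of each list, and the 3 genes most correlated with Dmd and Utrn; some genes that this rule names are not reported here. Settings varied were scaling, background correction, dim-probe and outlier filters, gene summary, variance model, array weights, slide position, replicate block and leaving out each mouse.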

Additional observations from a re-analysis of the deposited data

Results flagged for a closer look

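In 1 of the 26 sets of 4 arrays checked with Dixon's test at the 95% level, a single array stood apart. At the second Sgcb probe, WT replicate 1 read 4.01 while the other WT arrays all read 4.11. Chance alone flags about 1 in 20 such sets, and the group's SD at this probe was only 0.05. Without this array the probe was still higher in PCKO.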

How the results depend on the processing

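Of 301 values of the 13 member probes under 24 other settings of the fit, 276 kept their side of the threshold without a reversal of a called direction (Sspn, at 0.00, has no direction to keep and ran from -0.06 to 0.07 when mice were left out), 19 lost the call, 3 gained it (all Sspn) and 3 reversed, each of these with spike-in centring (the dimmest Dmd probe 0.28, Dag1 0.35, Utrn 0.27). Sgca, Sgcd, Dtna and the brightest Sgcb probe kept both under every setting that gave them a value. Spike-in centring left 4 member probes lower, 8 list genes lower and 25 higher, against 9, 24 and 15, and 12964 probes of the array higher and 2394 lower, against 8396 and 7783. It also turned Dpm1 to 0.14. In the deposited values, which lack 6 member probes, 3 member probes were lower, 9 list genes higher and 14 lower, and 5370 and 4022 probes of the array higher and lower. At gene level 1 member was higher, and 4880 genes were higher and 4169 lower. In slide rows 1 and 2 alone, with 2 mice per group, 1 member probe was higher in each, 5437 and 5457 probes of the array were higher, and row 1 had 7 list genes higher. Within-array pairs past the threshold fell to 0 after normexp and ranged from 0 to 9 when each mouse was left out, where the difference between the 2 dimmer Sgcb probes ran from -0.05 to 0.02. No paired design was established; with the replicate number as a block 3 member probes were higher and 9 lower, as without it. The slide column as a random block, chosen after seeing the data, also gave 3 and 9. Each column held a single group and the fitted correlation within columns was -0.001. This setting therefore could not separate a column effect from the genotype. Fewer samples or probes enter the row, deposited and gene-level settings; for the others the cause was not tested. The dim Sgcd and Dmd probes are limited by their signal over background.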
